A study of Mus musculus with 6 samples.

Results

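The 10 genes described here are Yap1, Wwtr1, Tead1, Tead2, Tead3, Tead4, Lats1, Lats2, Amotl1 and Amotl2, taken by gene symbol as a fixed list from 24956 genes with an expression value. They belong to the Hippo pathway and its transcription factors. RNA-seq compared 3 cultures of Apc Min mouse intestinal organoids treated with DM-aKG, the dimethyl ester of α-ketoglutarate, which can enter cells, with 3 control cultures of the same genotype. Organoids are closed epithelial cultures, and the Apc Min allele is a nonsense mutation in Apc, which restrains Wnt signalling. Both groups carry it. Expression is given as RPKM, a gene's reads divided by its length in kilobases and by the reads of the library. The sources used here do not give the control treatment, the dose, the time, or the age of the animals. The 3 libraries of a group are called biological replicates, but nothing says whether they came from separate mice, so the p-values measure the spread between these cultures.

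In the Hippo pathway, the kinases LATS1 and LATS2 phosphorylate the coactivators YAP (Yap1) and TAZ (Wwtr1), which keeps them out of the nucleus or leads to their breakdown. Coactivators that reach the nucleus bind the TEAD proteins, which hold them to DNA, and genes of the pathway's own inhibitors, such as Lats2 and Amotl2, are among the known targets. In the intestine YAP is known for its part in regeneration after injury and in tumours with lost Apc.

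TEAD proteins bind DNA at the letters GGAATG, read as CATTCC on the other strand, and promoters of RefSeq genes on GRCm38.p6 were searched for it on both strands, from 250 bases before to 50 bases after each start site. Of the 10 genes, 8 had a promoter in the table, with 12 start sites in all. The motif was present in at least 1 promoter of 5 of these 8 genes, namely Yap1, Wwtr1, Tead3, Lats2 and Amotl2, and in none of Tead2, Lats1 and Amotl1. Among all promoters of the same length 14.7% held it (4817 of 32851), and so did at least 1 promoter of 16.6% of all genes. A match is a description of the letters and does not show binding. The 250 bases before the start site are shown for Amotl2, the member with the larger rise in the first fit described below, for Yap1, the main coactivator transcript, and for Tead2, the gene that fell most, each 5′ to 3′ on the gene's strand with the motif in capitals.
Amotl2: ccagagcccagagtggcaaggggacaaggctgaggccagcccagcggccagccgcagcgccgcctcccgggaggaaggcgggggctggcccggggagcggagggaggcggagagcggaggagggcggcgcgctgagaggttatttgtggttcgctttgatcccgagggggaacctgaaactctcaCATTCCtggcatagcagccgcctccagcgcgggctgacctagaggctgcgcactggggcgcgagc
Yap1: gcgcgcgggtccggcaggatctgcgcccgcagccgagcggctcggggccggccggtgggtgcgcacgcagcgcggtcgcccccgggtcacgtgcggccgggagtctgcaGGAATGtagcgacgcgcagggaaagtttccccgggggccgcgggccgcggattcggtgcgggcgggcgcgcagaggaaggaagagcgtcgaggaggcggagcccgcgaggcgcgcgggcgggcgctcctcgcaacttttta
Tead2: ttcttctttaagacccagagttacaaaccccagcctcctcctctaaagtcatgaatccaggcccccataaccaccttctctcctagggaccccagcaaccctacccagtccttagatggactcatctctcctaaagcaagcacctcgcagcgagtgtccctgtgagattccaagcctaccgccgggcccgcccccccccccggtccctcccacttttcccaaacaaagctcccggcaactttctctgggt
The Amotl2 sequence is chr9:102717554-102717803 (plus strand), with the motif starting 65 bases before the start site. The Yap1 sequence is chr9:8004597-8004846 (minus strand), with the motif starting 141 bases before the start site. The Tead2 sequence, chr7:45215542-45215791 (plus strand), holds no match. These start sites are those of RefSeq. GENCODE starts the Tead2 gene at 45215753, within the stretch shown, and the Amotl2 gene at 102716672, before the stretch shown. Other start sites of these genes were not searched.

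The libraries held an estimated 32.65 to 34.2 × 10⁶ reads each. The labelled tissue was checked against 8 epithelial markers, which were present in every library and summed to 3483 to 4388 RPKM in DM-aKG and 2662 to 2718 RPKM in control. They went both ways: Epcam, Cdx1 and Cdx2 were called lower (limma, log2 fold changes -0.33, -0.16 and -0.81), and Cdh1, Vil1, Krt8, Krt18 and Krt19 were called higher (0.21, 0.17, 0.85, 0.91 and 0.85). Markers of other cell types were low. Of 10 fibroblast and muscle markers, 8 were at 0.07 RPKM or less in every library, with Col3a1, Dcn and Lum at 0, and Vim accounted for most of the rest. Their summed level was 4.57 to 5.27 RPKM in DM-aKG and 2.88 to 3.22 RPKM in control. Sums over 8 immune markers were 2.22 to 3.46 RPKM in DM-aKG and 1.82 to 1.99 RPKM in control, with Cd4 at 0 throughout. Cd68 and Itgam made up most of these sums, and the groups overlapped in Cd68. Lyz2 went the other way, at 0.09, 0.24 and 0.19 RPKM in DM-aKG and 0.54, 0.43 and 0.37 RPKM in control. Sums over 5 endothelial markers were 0.38 to 0.52 RPKM in DM-aKG and 0.16 to 0.23 RPKM in control, with Cdh5 and Kdr at 0 throughout. All 4 sums were higher in DM-aKG, and their part in the results below was not tested. In bulk RNA, fewer cells of a type and less RNA per cell cannot be told apart.

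Genes were tested on log2(RPKM + 0.5) if their mean over the 6 libraries was at least 1 RPKM, which held for 10852 genes and for 6 of the 10 members: Yap1, Tead1, Tead2, Tead3, Lats1 and Amotl2. A gene was called at an adjusted p under 0.05 (limma, Benjamini-Hochberg over all tested genes). Wwtr1, Tead4, Lats2 and Amotl1 lay below that mean and were tested in a second fit of all 18343 genes with a value above 0. In the first fit 2 members (Lats1 and Amotl2) were called higher and 1 (Tead2) lower, where 55.6% of all tested genes were called, 30.9% higher and 24.7% lower. In the second fit 5 of 10 members were called higher and 1 lower, where 36.1% of all genes were called, 20.6% higher and 15.4% lower. That fit had 6615 calls among 18343 genes, and the first had 6033 among 10852. The genes below the filter thus lower the share, and the shares of the fits are unlike baselines. The split of all calls in the first fit, 3354 higher and 2679 lower, became 2790 higher and 3340 lower when each library was centred on its median gene, so small changes such as that of Lats1 depend on the scaling. The median change was 0.13 on the log2 scale over the 6 members tested first and 0.13 over all 10 in the second fit, against 0.02 and 0.01 over all genes of each fit.

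**Figure D1:**
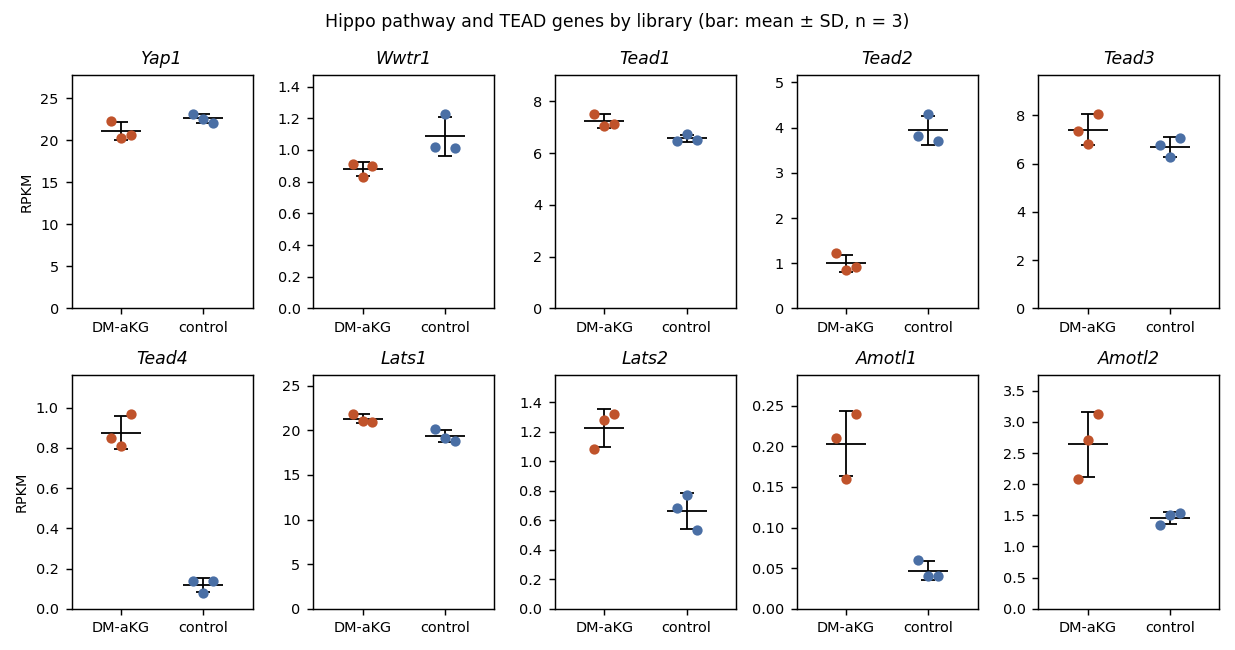
RPKM of the 10 genes in each library, DM-aKG left and control right in each panel, with bars for the mean ± SD of 3 libraries. Tead4 stood at 0.81 to 0.97 RPKM in DM-aKG and 0.08 to 0.14 RPKM in control, Tead2 at 0.86 to 1.22 RPKM in DM-aKG and 3.71 to 4.31 RPKM in control, while Yap1 and Tead3 overlapped between the groups.

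Among the transcription factor genes, Tead2 fell and Tead4 rose. Tead2, a TEAD family member known for its expression in the early embryo, had 1.22, 0.86 and 0.92 RPKM in the DM-aKG libraries and 3.81, 4.31 and 3.71 RPKM in the controls. All 3 DM-aKG libraries lay below all controls, and replicate 1 was the highest of the 3. Tead2 averaged 1.0 ± 0.193 RPKM in DM-aKG and 3.94 ± 0.321 RPKM in control (SD, n = 3 each), and it fell by 1.57 ± 0.11 in log2 units (SE, as for every log2 fold change with ±; adjusted p = 3.53e-05 by limma). Of the 10852 tested genes, 50 had a lower log2 fold change than Tead2. The ratio of its mean RPKM in control to that in DM-aKG was 3.94.

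Tead4, the TEAD family member needed for the trophectoderm of the early mouse embryo, had 0.85, 0.81 and 0.97 RPKM in the DM-aKG libraries and 0.14, 0.08 and 0.14 RPKM in the controls. Every DM-aKG library lay above every control. The mean was 0.877 ± 0.0833 RPKM in DM-aKG and 0.120 ± 0.0346 RPKM in control (SD, n = 3 each), a ratio of 7.31. On the log2(RPKM + 0.5) scale, which understates the change of low genes, Tead4 rose by 1.15 ± 0.07 (SE; limma without the filter, adjusted p = 2.17e-04). The size depends on the pseudocount, and Tead4 rose by 2.16 with 0.1 and by 0.74 with 1 in its place. With the estimated depth and the exon length of 3598 bases in GENCODE, these levels stand for about 95.6 to 114 reads in DM-aKG and 9.71 to 16.6 reads in control. Among the 45 pairs of members, Tead3 and Tead4 were the only pair whose transcripts shared stretches of 36 bases. They shared 24, counted from every base, so these stretches can overlap and need not be separate regions. The sources do not say how reads in them were divided.

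Tead1 and Tead3, the more abundant family members, were not called. Tead1 had 7.53, 7.05 and 7.14 RPKM in DM-aKG and 6.48, 6.73 and 6.51 RPKM in control, so the groups did not overlap, as in 64.2% of tested genes. Its log2 fold change was 0.13, with a 95% interval of 0.02 to 0.24 (limma, adjusted p = 0.0540). It passed with libraries rescaled to an equal sum (adjusted p = 0.0209) and without the variance trend (adjusted p = 0.0475). Tead3 had 7.34, 6.79 and 8.07 RPKM in DM-aKG and 6.77, 6.25 and 7.07 RPKM in control, and the groups overlapped. The log2 fold change of Tead3 was 0.13, with a 95% interval of -0.04 to 0.30 (limma, adjusted p = 0.160).

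Since RPKM is per length, the levels of the 4 TEAD genes can be set side by side within a library. Their summed level was 16.5 ± 0.875 RPKM in DM-aKG and 17.3 ± 0.119 RPKM in control (SD, n = 3 each), with 15.5 to 17.1 RPKM in the single DM-aKG libraries and 17.2 to 17.4 RPKM in the single controls. Within this sum Tead2 made up 6.04 ± 1.01% in DM-aKG and 22.7 ± 1.84% in control. Tead4 made up 5.30 ± 0.335% in DM-aKG and 0.693 ± 0.201% in control. Tead1 held 43.9 ± 1.91% in DM-aKG and 37.9 ± 0.730% in control, and Tead3 held 44.8 ± 2.11% in DM-aKG and 38.6 ± 2.38% in control. None of the 4 shares overlapped between the groups. The shares of a library add up to its whole sum, so they are not independent, and a lower Tead2 share by itself raises the others. The higher shares of Tead1 and Tead3 are therefore no separate result, and neither gene was called. In control libraries Tead2 exceeded Tead4 in every library, whereas in DM-aKG their levels, 0.86 to 1.22 RPKM for Tead2 and 0.81 to 0.97 RPKM for Tead4, overlapped.

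**Figure D2:**
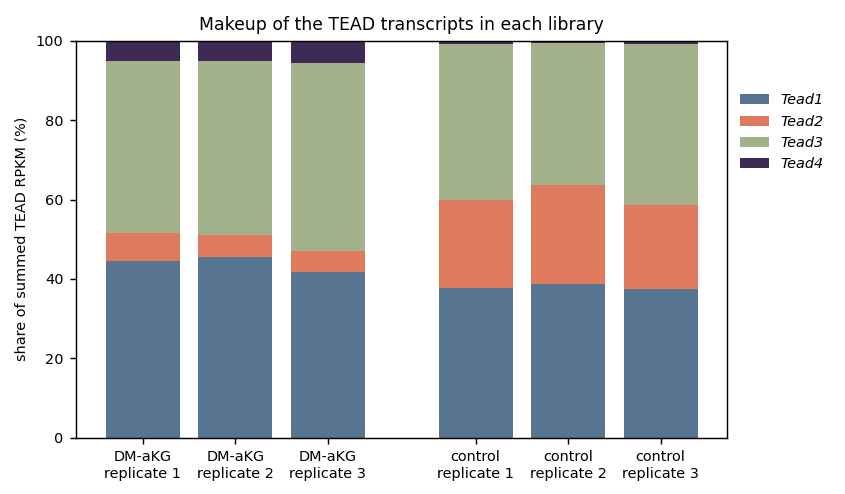
Share of each TEAD gene in the summed TEAD RPKM (%), one stacked bar per library, DM-aKG libraries left and control libraries right. Tead2 takes 5.38% to 7.20% in the DM-aKG bars and 21.3% to 24.8% in the control bars, and Tead4 takes 5.02% to 5.67% in the DM-aKG bars and 0.461% to 0.814% in the control bars.

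Neither coactivator gene was called. Yap1 had 22.26, 20.25 and 20.67 RPKM in DM-aKG and 23.17, 22.56 and 22.10 RPKM in control. DM-aKG replicate 1 lay within the control range and the other 2 below it. The log2 fold change of Yap1 was -0.10, with a 95% interval of -0.21 to 0.01 (limma, adjusted p = 0.109). Yap1 was called lower with libraries centred on their median gene (adjusted p = 0.0234), under quantile normalization (0.0205) and without DM-aKG replicate 1 (0.0157), so limma gave a change of -0.14 to -0.17 in these fits.

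Wwtr1, which encodes TAZ, had 0.91, 0.83 and 0.90 RPKM in DM-aKG and 1.02, 1.23 and 1.01 RPKM in control. The groups did not overlap, as in 46.9% of the 18343 genes of the fit without the filter. Wwtr1 had a log2 fold change of -0.20 ± 0.08 (SE) and did not pass (limma without the filter, adjusted p = 0.117). In RPKM within a library, the level of Yap1 was that of Wwtr1 times 23.9 ± 0.845 in DM-aKG and times 21.0 ± 2.32 in control (SD, n = 3 each).

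Both LATS kinase genes were called higher, Lats2 with the larger log2 fold change. Lats2 had 1.08, 1.28 and 1.32 RPKM in the DM-aKG libraries and 0.68, 0.77 and 0.53 RPKM in the controls, with no overlap. The means of Lats2 were 1.23 ± 0.129 RPKM in DM-aKG and 0.660 ± 0.121 RPKM in control (SD, n = 3 each), a ratio of 1.86. Lats2 rose by 0.58 ± 0.11 log2 units (SE; limma without the filter, adjusted p = 0.00793). Lats1 had 21.84, 21.05 and 20.97 RPKM in DM-aKG and 20.10, 19.14 and 18.82 RPKM in control, also with no overlap. Lats1 rose by 0.13 ± 0.04 log2 units (SE; limma, adjusted p = 0.0304). That call was lost with median centring (adjusted p = 0.106) and quantile normalization (0.297). It was also lost without control replicate 2 (0.0794) or 3 (0.117), and without DM-aKG replicate 2 (0.0652) or 3 (0.0599). Lats1 remained the main LATS transcript: its RPKM was that of Lats2 times 17.5 ± 2.36 in DM-aKG and times 30.0 ± 5.34 in control (SD, n = 3 each). The log2 ratio of Lats2 to Lats1 was higher in DM-aKG by 0.77, or by 0.44 with 0.5 RPKM added to each gene, and no DM-aKG library overlapped with a control.

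The angiomotin-like proteins bind YAP and TAZ and hold them at cell junctions and in the cytoplasm. Amotl2 had 2.09, 2.71 and 3.13 RPKM in the DM-aKG libraries and 1.35, 1.50 and 1.53 RPKM in the controls, and all DM-aKG libraries lay above all controls. Amotl2 averaged 2.64 ± 0.523 RPKM in DM-aKG and 1.46 ± 0.0964 RPKM in control (SD, n = 3 each), and it rose by 0.67 ± 0.13 log2 units (SE; limma, adjusted p = 0.00305). Of the 10852 tested genes, 609 had a higher log2 fold change than Amotl2.

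Amotl1 was the lowest of the 10 genes, at 0.21, 0.16 and 0.24 RPKM in DM-aKG and 0.06, 0.04 and 0.04 RPKM in control. The groups did not overlap, and the ratio of the means was 4.36. Amotl1 rose by 0.36 ± 0.05 on the log2(RPKM + 0.5) scale (SE; limma without the filter, adjusted p = 0.00235), by 1.04 with a pseudocount of 0.1 and by 0.20 with a pseudocount of 1. With an exon length of 10064 bases its levels stand for about 52.8 to 78.9 reads in DM-aKG and 13.2 to 20.0 reads in control. Amot itself, the founding member of the angiomotin family and no member of the 10, had 10.75, 11.73 and 11.92 RPKM in DM-aKG and 9.64, 8.54 and 9.25 RPKM in control, and it rose by 0.31 ± 0.06 log2 units (limma, adjusted p = 0.00384). Together the 3 angiomotin transcripts summed to 14.3 ± 1.15 RPKM in DM-aKG and 10.7 ± 0.507 RPKM in control (SD, n = 3 each), most of it Amot.

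**Figure D3:**
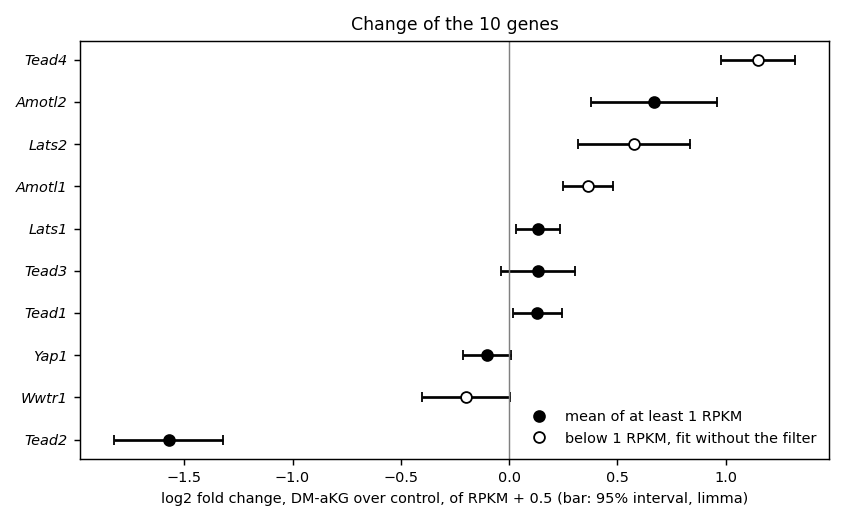
Log2 fold change, DM-aKG over control, of RPKM + 0.5 for the 10 genes with 95% intervals from limma; filled points had a mean of at least 1 RPKM, open points lay below it and come from the fit without the filter. Tead2 at -1.57 and Tead4 at 1.15 mark the ends, and the intervals of Yap1, Wwtr1 and Tead3 include 0.

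Per length, the order of the levels differed between the groups. In DM-aKG libraries Yap1 (20.25 to 22.26 RPKM) and Lats1 (20.97 to 21.84 RPKM) overlapped at the top, whereas in control libraries Yap1 (22.10 to 23.17 RPKM) lay above Lats1 (18.82 to 20.10 RPKM). Tead1 and Tead3 came next and overlapped in both groups. In DM-aKG Amotl2 followed at 2.09 to 3.13 RPKM, then Lats2 at 1.08 to 1.32 RPKM, Tead2, Wwtr1 and Tead4, of which Lats2 overlapped with Tead2, and Tead2, Wwtr1 and Tead4 with each other; Amotl1 was lowest. In control Tead2 followed at 3.71 to 4.31 RPKM, then Amotl2, Wwtr1, Lats2, Tead4 and Amotl1 with no overlap between neighbours.

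On GRCm38, the assembly that mm10 names, all 10 are annotated by GENCODE as protein-coding genes. Tead2 lies on chromosome 7, 45215753 to 45233644 (plus strand), Tead1 on chromosome 7, 112679318 to 112906807 (plus strand), and Tead4 on chromosome 6, 128224288 to 128300823 (minus strand). Tead3 lies on chromosome 17, 28331671 to 28350817 (minus strand). Yap1 lies on chromosome 9, 7931999 to 8004596 (minus strand), as do Amotl1, 14541966 to 14645056 (minus strand), and Amotl2, 102716672 to 102733418 (plus strand). Wwtr1 lies on chromosome 3, 57455649 to 57575910 (minus strand), Lats1 on chromosome 10, 7681214 to 7716460 (plus strand), and Lats2 on chromosome 14, 57689662 to 57758388 (minus strand). Exons of Tead2 overlap those of Cd37 on the other strand, and Cd37 was listed at 0.07 RPKM or less in every library. Exons of Yap1 overlap Gm20416 on the other strand, and those of Lats2 overlap Gm49361 on the same strand. Both are gene models with no listed value.

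Around these genes, the other Hippo pathway genes were called about as often as genes in general, in both directions. Of 40 listed, 29 were tested, of which 11 were higher, 7 lower and 11 not called, where 30.9% of all tested genes were higher and 24.7% lower, with a median log2 fold change of 0.10 beside 0.02 over all tested genes. Of the genes of the core kinase cassette outside the members, Stk4 was called and Stk3, Sav1, Mob1a and Mob1b were not. The MST kinase gene Stk4 had 12.56, 12.38 and 12.54 RPKM in DM-aKG and 14.59, 13.83 and 14.47 RPKM in control, and it fell by 0.19 ± 0.04 in log2 units (adjusted p = 0.00657 by limma). Its paralogue Stk3 had a log2 fold change of 0.03 ± 0.07 (limma, adjusted p = 0.743), and the scaffold gene Sav1 had -0.04 ± 0.05 (0.451). The LATS cofactor genes Mob1a and Mob1b had log2 fold changes of -0.03 ± 0.04 (limma, adjusted p = 0.481) and 0.13 ± 0.06 (0.0959). Nf2, which encodes the upstream scaffold merlin, stood at 18.2 ± 0.321 RPKM in DM-aKG and 17.7 ± 0.797 RPKM in control (SD, n = 3 each; limma, adjusted p = 0.437).

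Larger changes were found elsewhere in the pathway. Ajuba, whose LIM-domain product binds and inhibits LATS kinases, had 5.69, 6.71 and 6.90 RPKM in DM-aKG and 2.27, 2.24 and 2.38 RPKM in control, and it rose by 1.31 ± 0.08 log2 units (limma, adjusted p = 1.91e-05). The related genes Limd1 and Wtip were lower: Limd1 fell by 0.18 ± 0.04 (limma, adjusted p = 0.00977) and Wtip fell by 0.61 ± 0.10 (0.00147) on the log2 scale, with 1.15 ± 0.0814 RPKM of Wtip in DM-aKG and 2.02 ± 0.237 RPKM in control. Fat1, which encodes an atypical cadherin, had 31.56, 35.60 and 36.67 RPKM in DM-aKG and 18.02, 17.09 and 16.24 RPKM in control, and it rose by 0.99 ± 0.07 log2 units (limma, adjusted p = 3.06e-05). Rassf6, Strn3 and Wwc1 also rose, with log2 fold changes of 0.59 for the RASSF family gene Rassf6, 0.36 for Strn3, a component of the STRIPAK phosphatase complex, and 0.31 for Wwc1, which encodes the scaffold KIBRA (limma, adjusted p = 2.53e-04, 2.62e-04 and 7.89e-04). Stk38l, which encodes a kinase of the NDR family related to LATS, fell by 0.50 ± 0.05 in log2 units (adjusted p = 1.68e-04 by limma).

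Vgll4, whose product competes with YAP for TEAD proteins, had 15.73, 13.90 and 13.68 RPKM in DM-aKG and 18.92, 21.93 and 20.01 RPKM in control. The groups did not overlap, and Vgll4 fell by 0.48 ± 0.07 in log2 units (adjusted p = 0.00111 by limma). Vgll3, a TEAD cofactor of the same family, lay below the filter at 0.34, 0.46 and 0.50 RPKM in DM-aKG and 0.06, 0.07 and 0.03 RPKM in control. It was the 1 pathway gene called only without the filter and was chosen for mention after its values were seen (log2 fold change 0.75 ± 0.07; limma without the filter, adjusted p = 8.39e-04).

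Genes of a YAP/TAZ target signature known from human tumours were then described in their mouse form, without the members Lats2 and Amotl2. Of 20 listed, 9 were tested, of which limma called 6 higher and did not call 3, where 55.6% of all tested genes were called, 30.9% higher and 24.7% lower. The median log2 fold change was 0.47 over the 9 and 0.02 over all tested genes. The list was chosen with earlier results of these data known, and no test of it was made. F3, which encodes tissue factor, had 60.74, 63.43 and 64.18 RPKM in DM-aKG and 9.28, 10.42 and 8.58 RPKM in control, and it rose by 2.68 ± 0.07 log2 units (limma, adjusted p = 5.16e-07). Myof, which encodes the membrane protein myoferlin, had 4.03, 2.78 and 2.58 RPKM in DM-aKG and 1.10, 0.92 and 0.94 RPKM in control, and it rose by 1.27 ± 0.15 (limma, adjusted p = 3.27e-04). The groups did not overlap in either gene.

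Nt5e, which encodes an ectonucleotidase, and Dock5, which encodes a guanine nucleotide exchange factor for Rac, each rose by 0.90 log2 units (limma, adjusted p = 0.00383 and 6.41e-05). Gadd45a, a growth arrest gene that p53 is also known to induce, rose by 0.42 ± 0.06 (limma, adjusted p = 9.54e-04). The matricellular gene Cyr61, often used as a readout of YAP activity, had 2.96, 4.22 and 3.99 RPKM in DM-aKG and 2.61, 2.70 and 2.27 RPKM in control. Cyr61 rose by 0.47 ± 0.12 log2 units (limma, adjusted p = 0.0134), a call lost without control replicate 3 (adjusted p = 0.0538) or without DM-aKG replicate 2 (0.0508). The targets Crim1, Asap1 and Nuak2 had log2 fold changes of -0.02, 0.09 and -0.00457 and were not called.

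Ctgf, the other matricellular gene used as a YAP readout, lay below the filter at 0.49, 0.76 and 0.62 RPKM in DM-aKG and 0.14, 0.09 and 0.13 RPKM in control. Its groups did not overlap and the ratio of the means was 5.19. Ctgf rose by 0.85 ± 0.09 log2 units (limma without the filter, adjusted p = 0.00126). Pdgfrb, a stromal marker, stood at 0.24, 0.70 and 0.64 RPKM in DM-aKG and 0.08, 0.15 and 0.14 RPKM in control (limma without the filter, adjusted p = 0.0293). Vim, another, averaged 4.34 RPKM in DM-aKG and 2.83 RPKM in control (limma, adjusted p = 0.00224). The other 8 fibroblast and muscle markers were at 0.07 RPKM or less in every library, with Col3a1, Dcn and Lum at 0. The part of stromal cells in the Ctgf values was not tested. Ankrd1 was listed at 0, 0.03 and 0.02 RPKM in DM-aKG and at 0 in all controls. In the fit without the filter 8 of 19 targets were called higher and 1 lower, where 20.6% of all genes of that fit were higher and 15.4% lower. The target that was lower was Arhgef17, at 0.257 ± 0.0208 RPKM in DM-aKG and 0.587 ± 0.0681 RPKM in control. Besides Ctgf, the gene that the second fit added to the higher ones was Igfbp3, at no more than 0.15 RPKM in any library, whose call was lost in 6 of 12 alternatives, among them the omission of control replicate 2 (limma, adjusted p = 0.0860) or 3 (0.0782) or of DM-aKG replicate 2 (0.104) or 3 (0.105). Arhgef17 and Igfbp3 were chosen for mention after their values were seen.

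**Figure D4:**
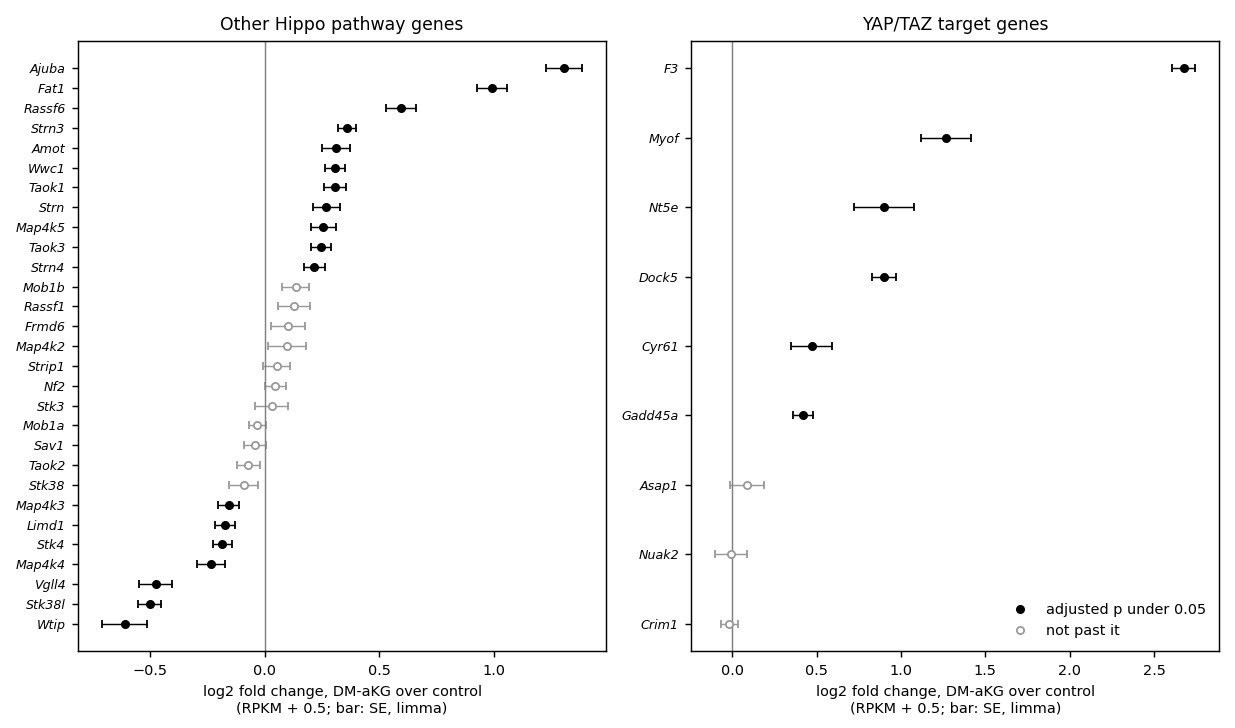
Log2 fold change, DM-aKG over control, with SE (limma, log2 of RPKM + 0.5), of the 29 tested other Hippo pathway genes on the left and the 9 tested YAP/TAZ targets on the right; filled points passed an adjusted p of 0.05. Pathway genes spread from -0.61 (Wtip) to 1.31 (Ajuba), and targets from -0.02 (Crim1) to 2.68 (F3).

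The genes most like Tead2 and Amotl2, the tested members with the largest changes, were sought over the 6 libraries by the root mean square distance between log2(RPKM + 0.5) profiles centred on their own mean, among 10344 genes. Nearest to Tead2 were Bhlha15, a transcription factor gene of secretory cells, at a distance of 0.0396, the trefoil factor gene Tff3 at 0.0828 and the ribonuclease gene Rnase4 at 0.0906. Bhlha15 had 3.87, 2.90 and 3.16 RPKM in DM-aKG and 10.21, 10.85 and 9.95 RPKM in control. Nearest to Amotl2 were Zfr2 at a distance of 0.0363, the gene Mad2l2 at 0.0493 and the gene Cox18 at 0.0534. Zfr2 had 2.65, 3.65 and 3.92 RPKM in DM-aKG and 1.74, 1.92 and 1.93 RPKM in control. With 2 groups of 3 libraries, many genes share such profiles.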

How the data were processed

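The authors deposited RPKM with 2 decimals for 24956 genes and 6 libraries, taken to samples by column title. The submitters' processing notes name mm10, Partek, HISAT2 2.0.4 and CASAVA 1.8 without their roles; the sources used here do not give the annotation, the strand or the treatment of multi-mapped reads. RPKM is relative, so changes in abundant genes shift all others slightly.

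Values were analysed as log2(RPKM + 0.5) for genes with a mean of at least 1 RPKM (10852), or of any gene above 0 (18343), with limma 3.58.1 in R 4.3.3 (lmFit, eBayes with trend, two-sided, no replicate term, Benjamini-Hochberg). The procedure was tested on simulated data. Library depth was the read number that put the largest count of short snoRNA and miRNA genes (up to 150 bases) at 1 read. This held for 33 of 97 such genes above 0 in control replicate 2 and up to 52 of 114 in DM-aKG replicate 2. Of the other values up to 5 reads, 75.0% to 85.0% were whole within 0.05 reads. Read numbers are estimates, and no interval was made from them. Shares and ratios have no printed p, since an exact permutation test of 3 against 3 cannot go below 0.1.

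The members and lists were chosen with earlier results of these data known. Named genes were the 10 members, up to 5 called per direction and list with the smallest p, Ctgf, Cyr61, Ankrd1, Stk3, Stk4, Sav1, Mob1a, Mob1b, Nf2, Vgll4 and Amot, and the 3 nearest profiles for 2 members; others are examples. Positions come from GENCODE and promoters from RefSeq. Alternatives covered pseudocounts of 0.1 and 1, the filter, scaling, the variance model, the replicate number and the omission of each library; those without the filter were added after the data were seen. Tables were handled in pandas 2.3.3 and numpy 2.4.6 under Python 3.11.15, and plots drawn in matplotlib 3.10.9.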

Additional observations from a re-analysis of the deposited data

How the results depend on the processing

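Tead2, Amotl2, Tead4, Lats2 and Amotl1 kept their direction and their call under every alternative run for them, with log2 fold changes of -1.89 to -1.31 for Tead2, 0.56 to 0.80 for Amotl2, 0.74 to 2.16 for Tead4, 0.42 to 0.81 for Lats2 and 0.20 to 1.04 for Amotl1. No median-centred fit was run without the filter, so Tead4, Lats2 and Amotl1 were not checked under that scaling. Members called higher numbered 5 without the filter, since 4 more were tested, and 1 with median centring or quantile normalization, under both of which 2 were lower. Leaving out each library in turn gave 1 to 2 members higher and 1 to 2 lower. Without the filter, 1 target was lower. Adding 0.5 RPKM before forming shares and ratios moved the difference of the Tead2 share to -14.9 percentage points and of the Tead4 share to 4.23, moved the log2 ratio of Lats2 to Lats1 to 0.44, and turned that of Amotl2 to Amotl1 to 0.31 in place of -1.29, as it is large beside the level of Amotl1. Of genes that were not called, Stk3 changed sign with median centring (-0.0182) and over the omissions of single libraries (-0.0163 to 0.0918), Mob1a with equal sums (0.0067), and Nf2 with median centring (-0.00347) and quantile normalization (-0.0233). No sign of pairing by replicate number was seen: deviations of same-numbered libraries correlated at r = -0.083, -0.114 and 0.011 over tested genes. Those of differently numbered libraries correlated at -0.0331 to 0.0998. With so few libraries, these values cannot show how the cultures were set up. With a replicate block, 2 members were higher and 1 lower, and no member's call changed. The low levels of Tead4 and Amotl1 in control rest on few reads.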

Other observations

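Among the DM-aKG libraries, replicate 1 stood nearest to the controls in most called genes of the pathway. Of 27 called genes among the members, the other Hippo pathway genes and the targets, 21 (77.8%) had replicate 1 nearest to the control mean, 1 had replicate 2 and 5 had replicate 3. Over all 6033 called genes the share for replicate 1 was 65.5%. Amotl2 (2.09 RPKM in replicate 1, 2.71 and 3.13 RPKM in replicates 2 and 3) and Tead2 (1.22 RPKM, and 0.86 and 0.92 RPKM) show it, whereas Myof had its highest level, 4.03 RPKM, in that library.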
